A study of Mus musculus with 36 samples.

Results

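The 10 genes described here encode cytokines and chemokines that keratinocytes can make: Il1a, Il1b, Il1rn, Il18, Il33, Tslp, Cxcl1, Cxcl2, Ccl20 and Csf2. They were chosen by name, as the rows of the count table that carry these symbols, and all 10 were found among its 55358 genes. RNA-seq reads were counted in primary mouse keratinocytes that contained PKP4 (WT cells), lacked it (PKP4-KO cells) or had it added back (Rescue cells), and the study asked which processes depend on PKP4, an armadillo-repeat protein of cell-cell contacts. Each genotype was cultured for 24 h or 72 h in low-calcium medium with 50 µM CaCl2 (LCM) or in high-calcium medium, made by adding 1.2 mM CaCl2 (HCM), which gave 12 groups of 3 libraries. The library titles hold the codes LD and HD and no hours. LD was read as 24 h and HD as 72 h, and every comparison over time rests on that reading.

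The WT and the PKP4-KO keratinocytes were isolated from newborn Pkp4+/+ and Pkp4-/- pups of a C57BL/6N tm1b line, in which the floxed exon of Pkp4 and the reporter cassette are deleted, backcrossed to C57BL/6J. Rescue cells were PKP4-KO cells that had received EGFP-tagged human PKP4 by lentivirus and had been selected with puromycin. The libraries without the added PKP4 carried no vector, so the return of PKP4 and the effects of vector and selection cannot be told apart. All groups shared culture on collagen I at 32 °C in medium with foetal calf serum, insulin, EGF, cholera toxin and hydrocortisone, a glucocorticoid that itself lowers the expression of many cytokine genes. The replicates are called biological, but the sources used here do not give the pups or cultures behind them, so p-values measure only the spread between these samples.

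Interleukin 1α is made by resting keratinocytes as a precursor that is active without cleavage, and it is released when the cells are damaged. The interleukin 1 receptor antagonist, the product of Il1rn, occupies the same receptor without signalling. Signals from the interleukin 1 and Toll-like receptors converge on NF-κB, which switches on the genes of neutrophil-attracting chemokines such as CXCL1 and of CCL20, the ligand of CCR6. IL-33 and TSLP are alarmins of the epithelium that act on mast cells, innate lymphoid cells and dendritic cells and are known for their part in atopic skin disease.

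The label check and the make-up of the cultures bear on every value. Total counts lay between 13602728 and 22467187 per library. Pkp4 had 33.4 to 76.3 CPM in WT libraries, 6.40 to 14.1 in PKP4-KO libraries and 6.52 to 11.9 in Rescue libraries, while the added GFP-PKP4 sequence had 1902 to 15325 counts in Rescue libraries and at most 113 in all others. CPM here stands for library-size-normalised counts, scaled with edgeR's TMM factors. The summed level of 10 keratinocyte markers was 39421 to 68426 CPM in WT libraries, 44637 to 80148 in the knockout and 29625 to 46933 in Rescue libraries. The 12 leukocyte markers summed to 22.9 to 61.6, 7.11 to 48.9 and 67.3 to 178 CPM in the same order, for the most part Cd68, whereas Ptprc never exceeded 4 counts and Cd207, the marker of Langerhans cells, was at 0 throughout. In PKP4-KO cells the leukocyte sum was 9.04 to 12.8 CPM at 24 h LCM and 7.11 to 11.7 at 24 h HCM. At 72 h it was 18.3 to 33.0 in LCM and 34.6 to 48.9 in HCM. In WT cells it was 22.9 to 32.8, 23.7 to 39.7, 31.8 to 33.5 and 33.6 to 61.6 in this order. Rescue 72 h HCM libraries had the lowest keratinocyte sums, 29625 to 30170 CPM. The part of these sums in the members' values was not tested. The highest sums were 0.248 CPM for mast cell, 11.6 for fibroblast, 6.67 for melanocyte and 7.04 for endothelial markers. In such bulk samples, fewer cells of a type and less RNA per cell cannot be told apart.

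Promoter sequences were read for the members because several of them are textbook targets of NF-κB. RefSeq promoters of the GRCm38.p6 table were available for 9 of the 10 genes (12 promoters) and were located in GRCm39 by exact match. The motifs were searched on both strands in the 250 bases before each RefSeq start. The κB motif was found in 3 of the 12 member promoters, against 3.8994% of all 32851 promoters of the table. These 3 are shown from upstream to the gene start, 5′ to 3′ on the forward strand, with the κB letters in capitals; in Cxcl1 and Cxcl2 the capitals join a pair of overlapping matches, 1 on each strand.
Ccl20, chr1:83094237-83094486: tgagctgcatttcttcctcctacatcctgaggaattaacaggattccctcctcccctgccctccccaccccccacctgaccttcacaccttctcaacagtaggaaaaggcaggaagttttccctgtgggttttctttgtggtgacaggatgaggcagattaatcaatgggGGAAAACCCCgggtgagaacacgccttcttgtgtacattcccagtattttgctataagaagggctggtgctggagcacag
Cxcl1, chr5:91038854-91039093: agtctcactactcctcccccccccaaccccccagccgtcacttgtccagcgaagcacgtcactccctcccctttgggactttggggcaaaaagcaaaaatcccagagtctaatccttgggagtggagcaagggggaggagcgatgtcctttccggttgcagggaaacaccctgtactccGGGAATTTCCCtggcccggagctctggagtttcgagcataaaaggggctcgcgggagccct
Cxcl2, chr5:91051508-91051729: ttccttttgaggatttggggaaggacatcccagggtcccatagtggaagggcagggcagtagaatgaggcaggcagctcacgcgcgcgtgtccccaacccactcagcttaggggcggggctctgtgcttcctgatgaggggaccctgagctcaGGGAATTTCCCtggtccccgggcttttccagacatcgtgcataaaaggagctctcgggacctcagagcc
The AP-1 motif TGANTCA, which reads the same on both strands, was in the Il1a and Il1rn promoters, 2 of 12 against 6.7487% of all. The letters TATAAA were in 5 of 12, namely those of Il1a, Il1b and Il18 and both of Il33, against 12.368% of all. Both matches in Il1a lie within the Ensembl gene, which begins upstream of that RefSeq start. A match is a description of the letters, not a site of binding.

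The genes lie on 7 chromosomes of GRCm39, and some are neighbours. Il1a (ENSMUSG00000027399, chr2:129140291-129152098, reverse strand) and Il1b (ENSMUSG00000027398, chr2:129206490-129213059, reverse strand) lie side by side, and Il1rn (ENSMUSG00000026981, chr2:24226865-24241506, forward strand) lies on the same chromosome as Pkp4 too. Cxcl1 (ENSMUSG00000029380, chr5:91039094-91040974) and Cxcl2 (ENSMUSG00000058427, chr5:91051730-91053797) are adjacent on the forward strand. The others are Il18 (chr9:50466081-50493633, forward), Il33 (chr19:29902483-29938933, forward), Tslp (chr18:32948436-32952850, forward), Ccl20 (chr1:83094487-83096888, forward) and Csf2 (chr11:54138097-54140493, reverse). Il1a, Il1b, Il18, Il33 and Csf2 overlap genes annotated on the other strand (Gm14023, Il1bos, Bco2, Tex12, Gm41832 and Gm57329), and the sources used here do not state whether counting used strand, so reads of such partners may be included.

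The genes differed widely in level. On the per-length scale (RPKM, the scaled CPM divided by gene length in kb), the highest group mean of a gene was 233 for Il18, 115 for Tslp, 108 for Cxcl1, 91.5 for Il33, 37.8 for Il1a and 22.9 for Il1rn. Ccl20 reached 6.89 RPKM, and Csf2, Il1b and Cxcl2 stayed at or below 0.640, 0.296 and 0.22. IL-1β is mainly a product of myeloid cells, and its mRNA was close to the detection limit.

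**Figure D1:**
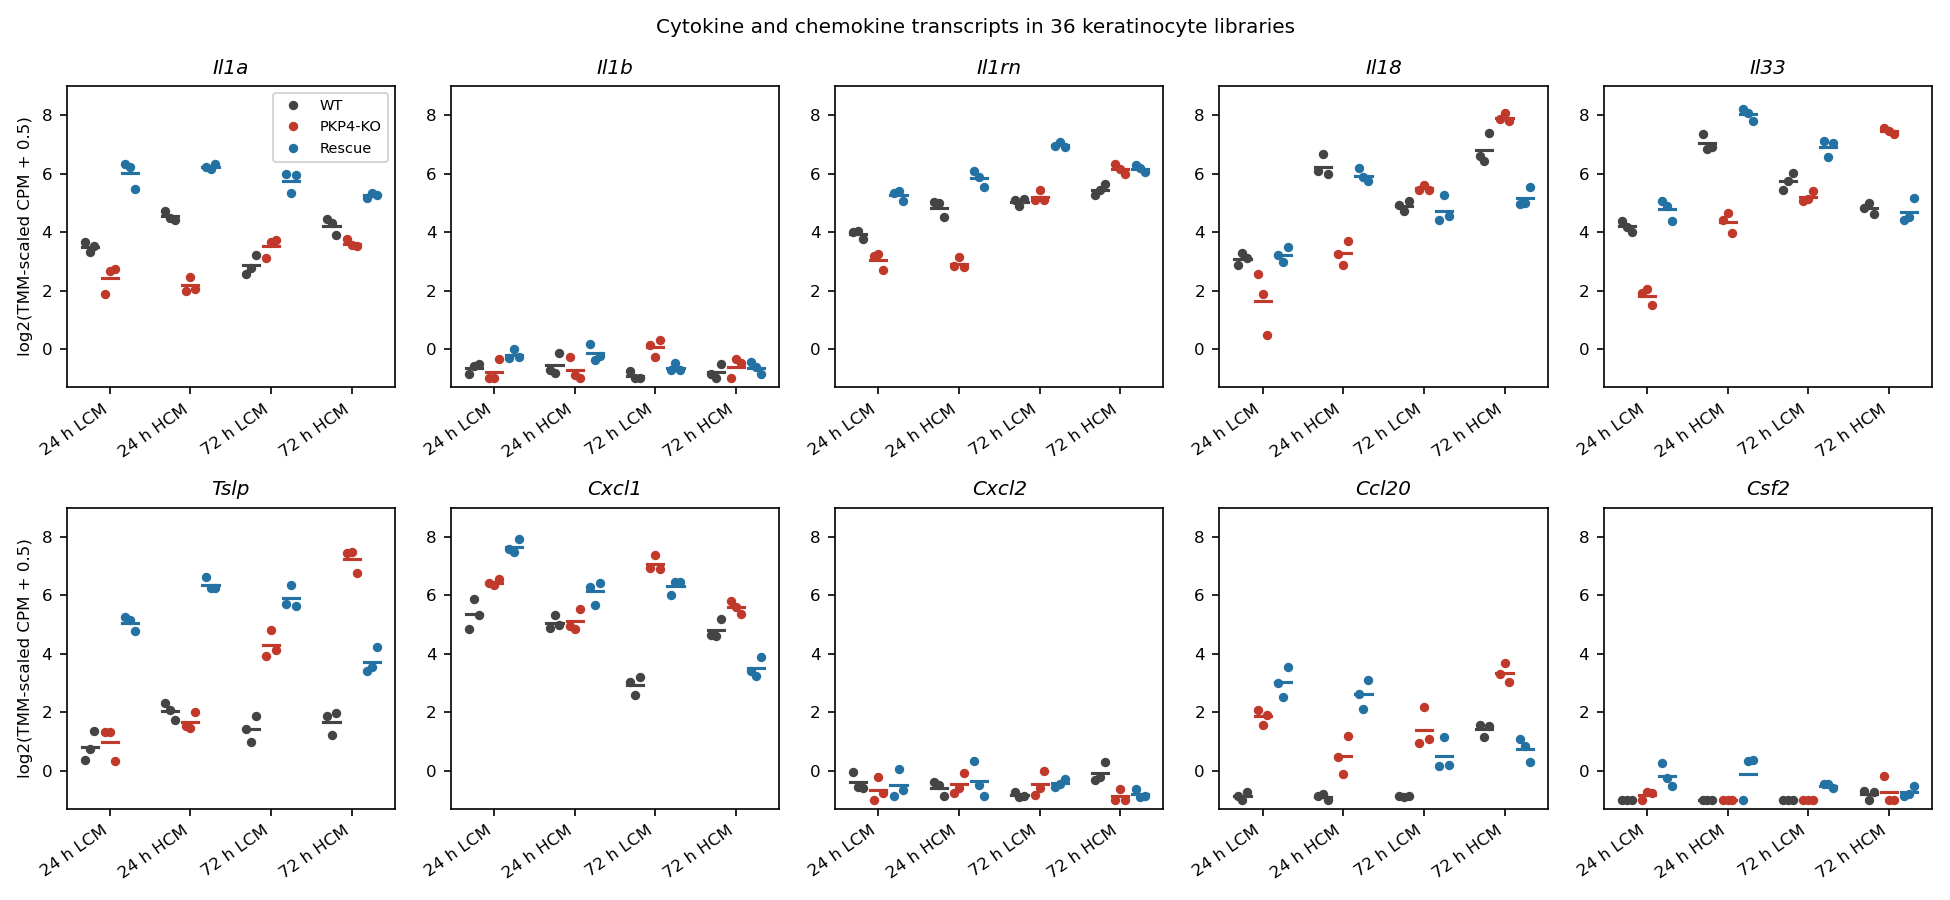
Levels of 10 cytokine and chemokine genes in 12 groups of keratinocyte libraries. The y axis of each panel is the TMM-scaled CPM on a log2(CPM + 0.5) axis, points are single libraries and bars are the means of 3 libraries for WT, PKP4-KO and Rescue cells at 24 h and 72 h in LCM and HCM. Tslp in PKP4-KO 72 h HCM libraries reaches 108 to 177 CPM, and Csf2, Il1b and Cxcl2 lie near the floor.

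Il1a encodes interleukin 1α. In WT libraries it had 12.2, 9.39 and 11.1 CPM at 24 h LCM, 25.9, 21.6 and 20.8 at 24 h HCM, 5.47, 6.42 and 8.82 at 72 h LCM and 21.2, 19.1 and 14.4 at 72 h HCM. The PKP4-KO libraries had 3.17, 5.87 and 6.18 at 24 h LCM, 3.5, 5.02 and 3.69 at 24 h HCM, 8.23, 12.2 and 12.8 at 72 h LCM and 13.1, 11.2 and 10.9 at 72 h HCM. The Rescue libraries had 79.3, 73.6 and 44.5 at 24 h LCM, 74.1, 70.4 and 79.5 at 24 h HCM, 63.5, 39.5 and 62.2 at 72 h LCM and 35.4, 40.3 and 38.4 at 72 h HCM. All Rescue libraries thus lay above every library of WT and PKP4-KO cells, and PKP4-KO 24 h HCM was the group with the lowest mean, 4.07 ± 0.829 CPM (SD, n = 3). Among the Rescue groups, 24 h LCM overlapped both 24 h HCM and 72 h LCM, whereas 24 h HCM did not overlap either group at 72 h.

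Il1rn encodes the antagonist of the interleukin 1 receptor. Its WT libraries had 15.4, 16.0 and 13 CPM at 24 h LCM, 32, 31.5 and 22.2 at 24 h HCM, 33.4, 29.0 and 34.8 at 72 h LCM and 38.4, 43.3 and 49.3 at 72 h HCM. In PKP4-KO cells the values were 8.53, 9.04 and 6.04 at 24 h LCM, 6.71, 8.28 and 6.43 at 24 h HCM, 33.8, 42.5 and 33.4 at 72 h LCM and 80.7, 71.7 and 63.3 at 72 h HCM. In Rescue cells they were 40.1, 42.1 and 33.1 at 24 h LCM, 68.4, 58.4 and 46.6 at 24 h HCM, 123, 137 and 120.3 at 72 h LCM and 77.3, 72.9 and 65.9 at 72 h HCM. The Rescue 72 h LCM libraries stood above all others, and the PKP4-KO 24 h libraries in LCM and HCM overlapped each other and lay below all others.

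The balance of antagonist to agonist mRNA was compared per length. The ratio of Il1rn to Il1a in WT cells was 0.492 ± 0.101 at 24 h LCM and 0.446 ± 0.0700 at 24 h HCM, and 1.73 ± 0.400 and 0.892 ± 0.299 at 72 h (SD, n = 3). In PKP4-KO cells it was 0.619 ± 0.311, 0.631 ± 0.0490, 1.21 ± 0.267 and 2.18 ± 0.108. In Rescue cells it was 0.217 ± 0.0439, 0.278 ± 0.0621, 0.870 ± 0.313 and 0.678 ± 0.0892. The mean ratio was highest in PKP4-KO 72 h HCM libraries (2.20, 2.28 and 2.07), which overlapped those of WT 72 h LCM (2.18, 1.61 and 1.41). In Rescue cells at 24 h all 6 libraries were below those of WT cells at that time. This ratio is free of the scaling between libraries, and it has no bearing on how much of either protein was released.

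**Figure D2:**
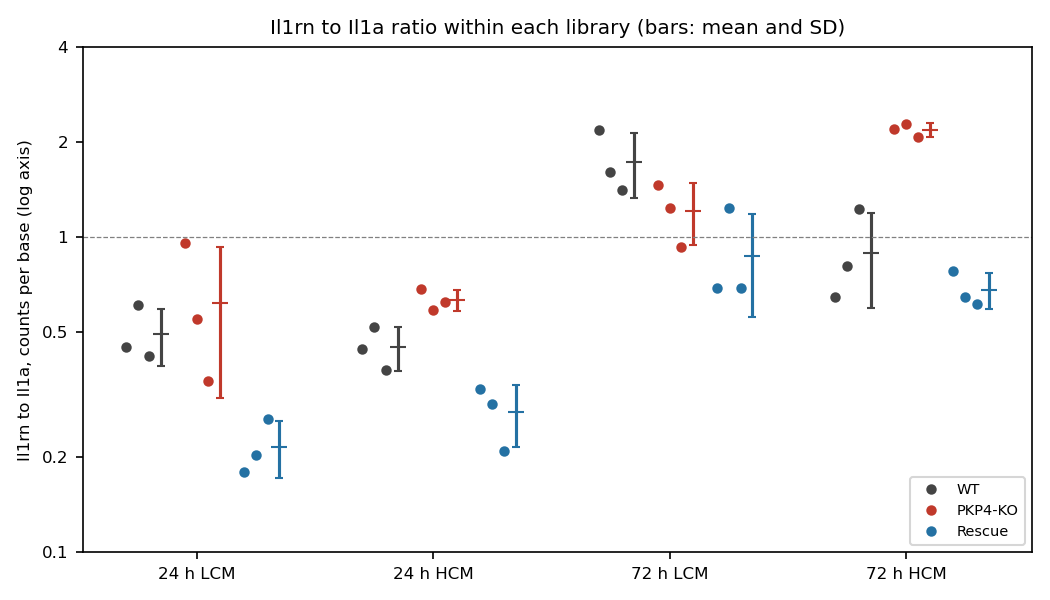
Per-length ratio of Il1rn to Il1a mRNA. The y axis is the ratio of RPKM values, points are single libraries, bars are means and error bars are SDs of 3 libraries for each genotype, time and medium. PKP4-KO 72 h HCM has a mean of 2.18 and Rescue 24 h LCM the lowest mean, 0.217.

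Il18 encodes interleukin 18, which keratinocytes store as a precursor that caspase 1 cleaves. WT libraries had 6.77, 9.33 and 8.17 CPM at 24 h LCM, 67.7, 100.4 and 62.9 at 24 h HCM, 30.1, 25.8 and 32.8 at 72 h LCM and 95.8, 85.8 and 167 at 72 h HCM. PKP4-KO libraries had 5.43, 3.16 and 0.890 at 24 h LCM, 8.95, 6.90 and 12.3 at 24 h HCM, 42.8, 48.8 and 42.8 at 72 h LCM and 232, 266 and 224 at 72 h HCM. Rescue libraries had 8.83, 7.33 and 10.7 at 24 h LCM, 72.1, 58.0 and 53.5 at 24 h HCM, 20.7, 37.8 and 23.0 at 72 h LCM and 30.8, 31.1 and 46.0 at 72 h HCM. PKP4-KO cells thus held both ends of the order, with 24 h LCM below and 72 h HCM above all other groups.

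Il33 encodes interleukin 33, a nuclear alarmin. WT libraries had 20.5, 17.7 and 15.6 CPM at 24 h LCM, 165, 114 and 119 at 24 h HCM, 43.4, 54.0 and 64.5 at 72 h LCM and 27.9, 31.5 and 24.2 at 72 h HCM. In PKP4-KO libraries the values were 3.31, 3.61 and 2.34 at 24 h LCM, 21.1, 25.0 and 15.4 at 24 h HCM, 32.7, 34.8 and 42.0 at 72 h LCM and 187, 175 and 162 at 72 h HCM. In Rescue libraries they were 33.1, 29.1 and 20.4 at 24 h LCM, 298, 271 and 223 at 24 h HCM, 138, 94.5 and 132 at 72 h LCM and 20.7, 22.2 and 35.7 at 72 h HCM. The peak was at 24 h HCM in WT and Rescue cells and at 72 h HCM in PKP4-KO cells, and the latter libraries, at 162 to 187 CPM, overlapped those of WT 24 h HCM.

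Tslp encodes thymic stromal lymphopoietin. It was low in WT cells, with 0.793, 1.17 and 2.03 CPM at 24 h LCM, 4.43, 3.74 and 2.85 at 24 h HCM, 2.21, 1.47 and 3.14 at 72 h LCM and 3.13, 1.82 and 3.38 at 72 h HCM. PKP4-KO libraries had 1.97, 2.01 and 0.749 at 24 h LCM, 2.38, 2.26 and 3.47 at 24 h HCM, 14.5, 27.5 and 17.1 at 72 h LCM and 173, 177 and 108 at 72 h HCM. Rescue libraries had 37.6, 34.6 and 26.7 at 24 h LCM, 97.1, 75.6 and 74.6 at 24 h HCM, 51.2, 82.0 and 49.5 at 72 h LCM and 10.1, 11.2 and 18.4 at 72 h HCM. All 4 WT groups and both PKP4-KO groups at 24 h lay below every library of the other 6 groups, and among these 6 the PKP4-KO 72 h HCM libraries were above all others.

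Cxcl1 encodes a ligand of CXCR2 that attracts neutrophils. WT libraries had 28.4, 58.6 and 39.9 CPM at 24 h LCM, 29.1, 39.9 and 30.8 at 24 h HCM, 7.72, 5.55 and 8.64 at 72 h LCM and 24.7, 24.1 and 35.7 at 72 h HCM. PKP4-KO libraries had 84.0, 80.6 and 92.9 at 24 h LCM, 30.3, 28.4 and 45.2 at 24 h HCM, 121, 165 and 119 at 72 h LCM and 55.1, 48.0 and 40.3 at 72 h HCM. Rescue libraries had 189, 177 and 242 at 24 h LCM, 78.0, 50.6 and 85.6 at 24 h HCM, 64.1, 87.0 and 86.7 at 72 h LCM and 10.1, 8.92 and 14.2 at 72 h HCM. Rescue 24 h LCM stood above all other groups, PKP4-KO 72 h LCM came next, also without overlap, and WT 72 h LCM was below all others.

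Ccl20 encodes the ligand of CCR6. It was at the floor in 3 of the 4 WT groups, with 1, 0 and 2 counts at 24 h LCM, 1, 1 and 0 at 24 h HCM and 1, 1 and 1 at 72 h LCM, and it had 42, 29 and 23 counts (2.18 ± 0.418 CPM) at 72 h HCM. PKP4-KO libraries had 3.74, 2.46 and 3.28 CPM at 24 h LCM, 0.885, 0.418 and 1.77 at 24 h HCM, 1.40, 4.03 and 1.60 at 72 h LCM and 9.27, 12.4 and 7.72 at 72 h HCM. Rescue libraries had 7.46, 5.26 and 11.1 at 24 h LCM, 5.66, 3.81 and 8.10 at 24 h HCM, 0.623, 1.69 and 0.630 at 72 h LCM and 1.62, 1.29 and 0.714 at 72 h HCM. The 3 low WT groups lay below every library of the other 9 groups, and the PKP4-KO 72 h HCM and Rescue 24 h LCM libraries, the highest, overlapped.

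Il1b, Cxcl2 and Csf2 were near the detection limit, which is set here at 3 counts, or 0.173 CPM at the median total, and which covers counting error only. Il1b encodes interleukin 1β, and 21 of 36 libraries had at most 3 counts of it. It had 2, 0 and 0 counts in WT and 10, 4 and 15 in PKP4-KO libraries at 72 h LCM, where the groups did not overlap. Cxcl2, a neutrophil chemokine like Cxcl1, had at most 3 counts in 22 libraries and at most 13 in any. Csf2 encodes GM-CSF, a growth factor of myeloid cells, and was at 0 in 20 libraries. Its counts in Rescue cells were 15, 8 and 3 at 24 h LCM, 0, 14 and 16 at 24 h HCM, 6, 3 and 3 at 72 h LCM and 1, 2 and 4 at 72 h HCM, against at most 3 in any WT or PKP4-KO library. The highest counts of Il1b (15) and Cxcl2 (13) fell in libraries with counts of the myeloid gene Lyz2, a gene picked after its values were seen. Lyz2 exceeded 10 counts in 4 libraries and was at most 9 in the others. These were PKP4-KO 72 h LCM replicate 3 with 65, Rescue 24 h LCM replicate 2 with 61, and Rescue 24 h HCM replicates 1 and 2 with 57 and 16, and its part in the Il1b and Cxcl2 values was not tested.

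Which of these differences follow the loss of PKP4 was asked in each of the 4 culture conditions with edgeR's quasi-likelihood test, adjusted after Benjamini and Hochberg over the 15114 tested genes. All 10 members passed the low-count filter, Csf2 only through Rescue libraries, as it did not exceed the floor in any WT or PKP4-KO library. At 24 h the IL-1 family genes Il1a, Il1rn, Il18 and Il33 were lower in the knockout in both media, and Ccl20 was higher. At 72 h the picture was different: Tslp, Cxcl1 and Ccl20 were higher in both media, Il18 and Il33 were higher in HCM, and Il33 was lower in LCM. Of the 10 genes, 6 were called at 24 h LCM, 2 higher and 4 lower, where 40.2% of all tested genes were called, 19.7% higher and 20.6% lower. At 24 h HCM 1 was higher and 4 were lower (all genes 42.8%, 20.7% higher and 22.2% lower), at 72 h LCM 5 and 1 (45.1%, 21.3% higher and 23.8% lower), and at 72 h HCM 6 and 1 (51.8%, 21.9% higher and 29.9% lower). The median log2 fold change of the 10 genes was -0.62, -0.53, 1.32 and 0.93 in this order, against 0.0033, -0.0016, 0.025 and -0.072 over all tested genes; with Csf2 set to its bound against the floor, or left out where both groups were at the floor, it was -0.62, -0.59, 1.95 and 1.05.

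**Figure D3:**
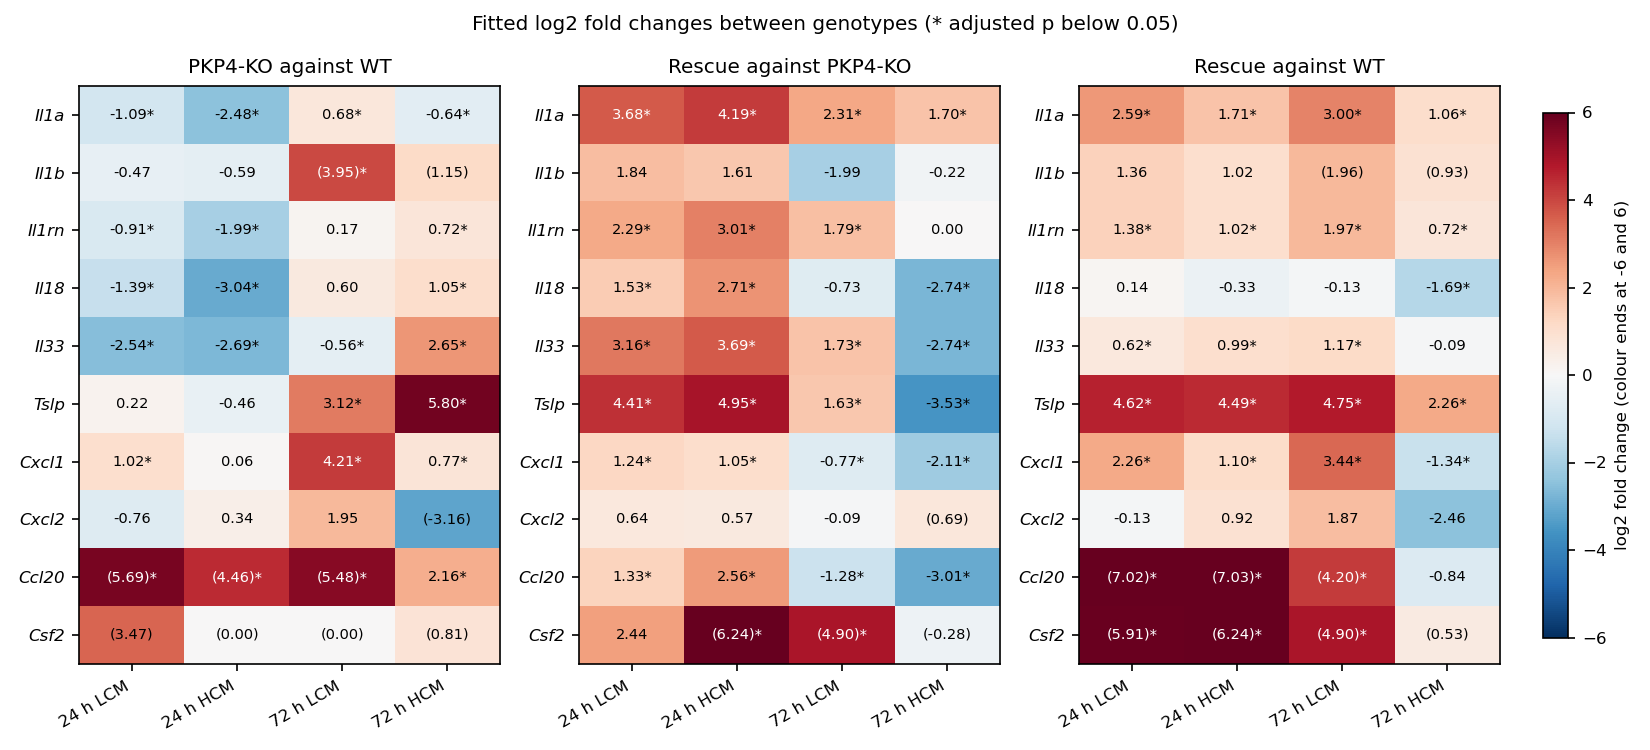
Log2 fold changes of the 10 genes in the 12 genotype comparisons from edgeR. Columns are the 4 culture conditions for PKP4-KO against WT, Rescue against PKP4-KO and Rescue against WT, colours give the log2 fold change, asterisks mark adjusted p below 0.05, and values in parentheses have a group with 3 counts or fewer in all, where the fitted size depends on the prior count. Tslp at 72 h HCM is at 5.80 in PKP4-KO cells; the value of Il1rn there, 0.72, turns to -0.034 when libraries are scaled by their totals alone.

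At 24 h LCM, Il33 showed the largest fall in PKP4-KO cells, from 18.0 ± 2.46 to 3.09 ± 0.665 CPM, a log2 fold change of -2.54 (SE 0.25, adjusted p = 2.27e-09). Il18 had -1.39 (SE 0.37, adjusted p = 0.00342), Il1a -1.09 (SE 0.24, adjusted p = 0.000699) and Il1rn -0.91 (SE 0.17, adjusted p = 9.77e-05), and in each of the 4 the libraries of the genotypes did not overlap. Cxcl1 was 2.03-fold higher in PKP4-KO cells, with a log2 fold change of 1.02 (SE 0.25, adjusted p = 0.00163). Ccl20 rose from 3 counts over all WT libraries, a ratio of 57.1 (19.2 to 279.8) with its 95% exact counting interval (adjusted p = 1.55e-07, edgeR). Il1b, Tslp, Cxcl2 and Csf2 did not pass the test, with Tslp at 0.22 (95% interval -0.63 to 1.06). Without PKP4-KO replicate 1 the log2 fold change of Il18 was -2.0, and without WT replicate 3 that of Ccl20 was 6.51. The Il18 call was lost in a fit of these groups alone (adjusted p = 0.086).

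At 24 h HCM the same 4 genes of the IL-1 family were lower. Il18 was 8.24-fold lower in PKP4-KO cells, 9.40 ± 2.74 against 77.0 ± 20.4 CPM, a log2 fold change of -3.04 (SE 0.36, adjusted p = 6.15e-08). Il33 had -2.69 (SE 0.24, adjusted p = 1.75e-10), Il1a -2.48 (SE 0.25, adjusted p = 3.23e-09) and Il1rn -1.99 (SE 0.17, adjusted p = 1.86e-10). Ccl20 was higher, with a ratio of 23.8 (6.28 to 202) over 2 counts in WT (adjusted p = 3.56e-05, edgeR), and 3.87 on the log2 scale in place of 4.46 without PKP4-KO replicate 3. Cxcl1 differed by 0.058 (95% interval -0.45 to 0.57) and did not pass the test.

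At 72 h LCM, Cxcl1, Ccl20, Tslp, Il1b and Il1a were higher in PKP4-KO cells and Il33 was lower. Cxcl1 was 18.5-fold higher in PKP4-KO cells, 135 ± 26.0 against 7.30 ± 1.59 CPM, a log2 fold change of 4.21 (SE 0.28, adjusted p = 1.08e-12). Tslp had 3.12 (SE 0.36, adjusted p = 5.91e-08), and Ccl20 had a ratio of 47.7 (15.9 to 235) over 3 counts in WT (adjusted p = 2.92e-07). Il1b had a ratio of 20.2 (5.10 to 174) over 2 counts in WT (adjusted p = 0.00627), with Lyz2 in 1 of its PKP4-KO libraries as given above. Il1a rose by 0.68 (SE 0.24, adjusted p = 0.022) with overlapping libraries, and Il33 fell, at -0.56 (SE 0.22, adjusted p = 0.0402), while Il1rn (0.17, adjusted p = 0.396) and Il18 (0.60, adjusted p = 0.143) did not pass. The libraries of Il18 did not overlap, however, and a fit of these groups alone called it higher (0.63, adjusted p = 0.0113). The Il1a call was lost without PKP4-KO replicate 2 or 3 or WT replicate 1 or 2 (log2 0.55 to 0.63, adjusted p = 0.0766 to 0.0988) and without TMM factors (0.30, adjusted p = 0.477). The Il33 call was lost without PKP4-KO replicate 1 or 2 or WT replicate 2 or 3 (-0.57 to -0.42, adjusted p = 0.0813 to 0.181). Leaving out PKP4-KO replicate 2 gave 4.87 for Ccl20, and leaving out WT replicate 1 gave 6.41 for Il1b, whose remaining WT libraries were at 0.

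At 72 h HCM, Tslp showed the largest change of any member in any genotype comparison other than those of genes at the floor. It had 153 ± 39.2 CPM in PKP4-KO and 2.78 ± 0.839 in WT cells, 55.6-fold higher, a log2 fold change of 5.80 (SE 0.40, adjusted p = 2.51e-12). Il33 rose by 2.65 (SE 0.24, adjusted p = 3.36e-10), from 27.9 ± 3.67 to 175 ± 12.5 CPM, and Ccl20 by 2.16 (SE 0.47, adjusted p = 0.000395). Smaller rises were called for Il18, 1.05 (SE 0.33, adjusted p = 0.01), Cxcl1, 0.77 (SE 0.25, adjusted p = 0.0125), and Il1rn, 0.72 (SE 0.17, adjusted p = 0.000711). Il1a was the 1 called gene that was lower, -0.64 (SE 0.24, adjusted p = 0.0285). Cxcl2, near the floor, had 5, 6 and 7 counts in WT and 0, 1 and 0 in PKP4-KO libraries. It did not pass (adjusted p = 0.0553), but its groups did not overlap, and it was called lower without TMM factors (adjusted p = 0.0141). The PKP4-KO 72 h HCM libraries stood apart in scaling, with TMM factors of 0.481 to 0.546 against 0.705 to 1.39 in all others. Without TMM factors the median of all genes in this comparison moved by -0.76 (log2), and with it the calls of Il1rn (-0.034, adjusted p = 0.881), Il18 (0.34, adjusted p = 0.262) and Cxcl1 (0.031, adjusted p = 0.907) were lost. The call of Il1a was also lost without PKP4-KO replicate 2 or 3 or WT replicate 1 or 2 (-0.62 to -0.53, adjusted p = 0.0727 to 0.118). That of Il18 was lost without WT replicate 1 or 2 (0.92 and 0.87, adjusted p = 0.0530 and 0.0648), and that of Cxcl1 without PKP4-KO replicate 1 or WT replicate 1 or 2 (0.64 to 0.67, adjusted p = 0.0602 to 0.0658). DESeq2 did not call Il1a here (-0.53, adjusted p = 0.0644).

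Genes near some members had negative median log2 fold changes, and their part in the members' values was not tested. Medians are given for Il33, Cxcl1, Il1rn and Il1a, and those around the other members are not given here. Within 5 Mb of Il33, 57 tested genes had a median log2 fold change of -0.78, -0.42, -0.76 and -0.91 after loss of PKP4 (24 h LCM, 24 h HCM, 72 h LCM, 72 h HCM). The 62 genes around Cxcl1 had -0.82, -0.78, -0.43 and -0.95, and the 122 genes around Il1rn had -0.50, -0.50, -0.44 and -0.48. Around Il1a, 100 genes had medians between -0.037 and 0.21. The lower values of Il33 at 24 h and at 72 h LCM and of Il1rn at 24 h had the same sign as the median of their neighbours, and the higher values of Il33 and Il1rn at 72 h HCM and of Cxcl1 at 24 h LCM and 72 h had the opposite sign. That of Il1rn at 72 h HCM turned negative without TMM factors, as given above, and then no longer had the opposite sign.

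Whether the PKP4-KO effect itself differed between conditions was tested with interaction terms in the same edgeR model. Between 24 h and 72 h in HCM the effect on 5 genes moved upward, where 26.6% of all tested genes were called, 10.8% higher and 15.8% lower. Tslp had the largest such difference, 6.26 (SE 0.53, adjusted p = 4.66e-10), followed by Il33, 5.34 (SE 0.33, adjusted p = 1.33e-12), and Il18, 4.09 (SE 0.49, adjusted p = 2.59e-07). Il1rn and Il1a had 2.71 (SE 0.24, adjusted p = 1.15e-09) and 1.84 (SE 0.34, adjusted p = 0.000183). In LCM, 6 genes were called, all upward (all genes 5.25%, 3.43% higher and 1.82% lower), namely Cxcl1, Tslp, Il18, Il33, Il1a and Il1rn, with log2 differences of 3.19, 2.90, 1.99, 1.98, 1.77 and 1.09. Between HCM and LCM at 72 h (all genes 5.74%, 1.85% higher and 3.88% lower), the effect was higher in HCM for Il33, 3.21 (SE 0.32, adjusted p = 1.38e-07), and Tslp, 2.68 (SE 0.50, adjusted p = 0.0009). It was lower in HCM for Cxcl1, -3.44 (SE 0.36, adjusted p = 3.25e-07), Ccl20, -3.32 (SE 0.88, adjusted p = 0.0193), and Il1a, -1.32 (SE 0.34, adjusted p = 0.0163). Ccl20 was at the floor in WT 72 h LCM, so the fitted size of its difference depends on the prior count. At 24 h (all genes 4.02%, 1.23% higher and 2.79% lower) the effect was lower in HCM for Il1a, -1.39 (SE 0.34, adjusted p = 0.0167), and Il1rn, -1.08 (SE 0.24, adjusted p = 0.00758).

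The calls of Il1a between media were lost at 24 h without PKP4-KO 24 h HCM replicate 1 or 24 h LCM replicate 2 or 3 (-1.28 to -1.22, adjusted p = 0.0547 to 0.0612) and at 72 h without PKP4-KO 72 h LCM replicate 3 or WT 72 h HCM replicate 1 (-1.21 in both, adjusted p = 0.0536 and 0.0531). That of Ccl20 was lost without PKP4-KO 72 h LCM replicate 2 (-2.71, adjusted p = 0.0584) or WT 72 h LCM replicate 2 or 3 (-3.24 and -3.33, adjusted p = 0.0641 and 0.0583). Without PKP4-KO 24 h LCM replicate 1 the difference of Il18 between times in LCM was 2.60. In fits of only the groups compared, the calls of Il1a between media (adjusted p = 0.0633 at 24 h and 0.0636 at 72 h), of Il1rn at 24 h (0.083) and of Il18 between times in LCM (0.0783) were lost. Without TMM factors those of Il1a and Il1rn between media at 24 h (0.277 and 0.139) and of Il1a between times in HCM (0.0839) were lost.

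Rescue cells were compared with PKP4-KO cells in the same conditions, and with WT cells to see what remained different. These comparisons share libraries with the one above, so their values are given side by side and are not independent. Csf2, which passed the low-count filter only through Rescue libraries, is included in some counts of higher members below. This holds at 24 h HCM and 72 h LCM against both genotypes and at 24 h LCM against WT, and its calls there are not independent of that filter. In Rescue against PKP4-KO, 7 members were higher at 24 h LCM (all genes 33.7%, 18.2% higher and 15.5% lower) and 8 at 24 h HCM (40.8%, 21.7% higher and 19% lower), with none lower. At 72 h LCM, 5 were higher and 2 lower (41.5%, 23.3% higher and 18.3% lower), and at 72 h HCM 1 was higher and 5 lower (66.7%, 37.2% higher and 29.5% lower). The median log2 fold change of the 10 genes was 2.06, 2.86, 0.77 and -1.20, against 0.00, -0.024, 0.028 and 0.20 over all tested genes. Against WT, 7 members were higher at 24 h LCM (24.8%, 13.5% higher and 11.4% lower), 7 at 24 h HCM (23.2%, 11.8% higher and 11.4% lower) and 7 at 72 h LCM (32.4%, 17.9% higher and 14.6% lower), with none lower, and at 72 h HCM 3 were higher and 2 lower (36.2%, 19.5% higher and 16.7% lower), with medians of 1.82, 1.06, 2.48 and 0.22 (all genes 0.022, -0.045, 0.034 and 0.063). With Csf2 at its bound, or left out where both groups were at the floor, the median was -2.11 for Rescue against PKP4-KO at 72 h HCM and 2.07 for Rescue against WT at 72 h LCM.

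Il1a, Il1rn, Il18 and Il33 at 24 h, the genes with lower levels without PKP4, were higher in Rescue than in PKP4-KO cells, and Il1a, Il1rn and Il33 were also above WT, while Il1b passed neither test. Il1a rose from PKP4-KO to Rescue cells by 3.68 (SE 0.26, adjusted p = 4.38e-12) at 24 h LCM and 4.19 (SE 0.27, adjusted p = 2.95e-13) at 24 h HCM, and against WT its log2 fold changes were 2.59 (SE 0.24, adjusted p = 3.87e-09) and 1.71 (SE 0.24, adjusted p = 2.81e-06). Il1rn had 2.29 and 3.01 against PKP4-KO (adjusted p = 2.5e-11 and 9.42e-14) and 1.38 and 1.02 against WT (adjusted p = 4.12e-07 and 3.53e-05). Il33 rose by 3.16 (SE 0.25, adjusted p = 5.08e-11) and 3.69 (SE 0.25, adjusted p = 7.46e-13) and was above WT by 0.62 (SE 0.22, adjusted p = 0.0435), with overlapping libraries, and 0.99 (SE 0.22, adjusted p = 0.0013). Il18 rose by 1.53 (SE 0.37, adjusted p = 0.00165) and 2.71 (SE 0.36, adjusted p = 4e-07), and its difference from WT did not pass the test, at 0.14 (95% interval -0.57 to 0.85) and -0.33 (-1.01 to 0.35). The Il18 value at 24 h LCM was 2.14 without PKP4-KO replicate 1, and the Il33 call against WT was lost without Rescue replicate 1 or 2 or WT replicate 2 or 3 (0.46 to 0.61, adjusted p = 0.10 to 0.197). It was also lost with a replicate block (0.051), without the low-count filter (0.0573), in a fit of these groups alone (0.0552) and without TMM factors (0.274), and the Il18 call against PKP4-KO at 24 h LCM was lost in a fit of those groups alone (0.102).

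Tslp, Cxcl1 and Ccl20 in Rescue cells at 24 h were above both other genotypes, while Cxcl2 passed no test. Tslp had 33.0 ± 5.63 CPM at 24 h LCM and 82.4 ± 12.7 at 24 h HCM, with log2 fold changes of 4.62 (SE 0.39, adjusted p = 5.99e-10) and 4.49 (SE 0.38, adjusted p = 4.64e-10) against WT. Against PKP4-KO cells they were 4.41 (SE 0.39, adjusted p = 4.43e-10) and 4.95 (SE 0.39, adjusted p = 1.9e-11). Cxcl1 had 2.26 (SE 0.26, adjusted p = 1.28e-07) and 1.1 (SE 0.25, adjusted p = 0.00152) against WT. It had 1.24 (SE 0.25, adjusted p = 0.000249) and 1.05 (SE 0.25, adjusted p = 0.00121) against PKP4-KO. Ccl20 exceeded WT with ratios of 138 (46.9 to 672) and 156 (43.0 to 1297) (adjusted p = 8.25e-09 and 2.52e-08) and PKP4-KO by 1.33 (SE 0.45, adjusted p = 0.0227) and 2.56 (SE 0.49, adjusted p = 9.05e-05). Csf2, at 0 in all WT 24 h libraries, was at least 7.80-fold higher at 24 h LCM (adjusted p = 0.0146) and at least 9.40-fold higher at 24 h HCM (adjusted p = 0.0108) when 3 counts over the group stand for 0, with 1 Rescue library at 0 in HCM. Against PKP4-KO at 24 h HCM it was at least 10.5-fold higher (adjusted p = 0.00487). As Csf2 passed the low-count filter only through Rescue libraries, these calls are not independent of that filter. The Ccl20 call against PKP4-KO at 24 h LCM was lost without PKP4-KO replicate 2 or 3 or Rescue replicate 3 (1.01 to 1.36, adjusted p = 0.0524 to 0.111), its 24 h HCM value was 3.17 without PKP4-KO replicate 3, and its 24 h LCM value against WT was 7.84 without WT replicate 3. Csf2 at 24 h LCM against WT had a fitted value of 5.31 in place of 5.91, adjusted p = 0.0494, without Rescue replicate 1, which held 15 of its counts.

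At 72 h LCM, Il1a, Il1rn, Il33 and Tslp were higher in Rescue than in PKP4-KO cells, with log2 fold changes of 2.31 (SE 0.24, adjusted p = 9.53e-09), 1.79 (SE 0.17, adjusted p = 1.26e-09), 1.73 (SE 0.23, adjusted p = 4.44e-07) and 1.63 (SE 0.33, adjusted p = 0.000203). Against WT the same genes had 3.0, 1.97, 1.17 and 4.75 (adjusted p = 1.72e-10, 3.4e-10, 0.000137 and 9.41e-11). Cxcl1 was lower than in PKP4-KO cells, -0.77 (SE 0.25, adjusted p = 0.0135), and higher than in WT cells, 3.44 (SE 0.27, adjusted p = 7.39e-11). Ccl20 was lower than in PKP4-KO cells, -1.28 (SE 0.49, adjusted p = 0.0381), with overlapping libraries, and above WT with a ratio of 19.4 (6.29 to 97.3) (adjusted p = 4.55e-05). Csf2 was at least 3.23-fold above PKP4-KO (adjusted p = 0.0423) and at least 4.48-fold above WT (adjusted p = 0.0316). The Csf2 calls were lost when any 1 library of Rescue or PKP4-KO 72 h LCM was left out (adjusted p = 0.0557 to 0.102) and, against WT, when any of 5 of the 6 libraries was, Rescue replicate 3 being the exception (0.0543 to 0.0852). The Cxcl1 call was lost without PKP4-KO replicate 2 or Rescue replicate 1 (-0.60 and -0.64, adjusted p = 0.0814 and 0.0809). That of Ccl20 was lost without PKP4-KO replicate 2 or Rescue replicate 1 or 3 (-0.67, -1.02 and -1.05, adjusted p = 0.330, 0.172 and 0.148), and both without TMM factors (adjusted p = 0.101 and 0.0923). The value of Ccl20 against WT was 3.62 without Rescue replicate 2. The Ccl20 call against PKP4-KO was also lost without the low-count filter (0.0518) and in a fit of these groups alone (0.15). Csf2 lost its call against PKP4-KO with DESeq2 (0.103), a replicate block (0.058) or no filter (0.0577), and against WT with DESeq2 (0.0702).

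At 72 h HCM, 5 members were lower in Rescue than in PKP4-KO cells and 1 was higher. Tslp was lower in Rescue than in PKP4-KO cells, -3.53 (SE 0.35, adjusted p = 2.12e-09), as was Ccl20, -3.01 (SE 0.48, adjusted p = 5.86e-06). Il18, Il33 and Cxcl1 were lower too, with -2.74 (SE 0.35, adjusted p = 1.96e-07), -2.74 (SE 0.24, adjusted p = 1.36e-10) and -2.11 (SE 0.26, adjusted p = 1.03e-07). For none of the 5 did the groups overlap. Il1a was the exception and was higher in Rescue cells, 1.70 (SE 0.24, adjusted p = 1.1e-06). Il1rn did not pass the test (0.0033, 95% interval -0.33 to 0.34, adjusted p = 0.988), but it was called higher without TMM factors (1.18, adjusted p = 1.48e-06), where the median of all genes moved by 1.17. Against WT, Tslp (2.26, adjusted p = 1.95e-05), Il1a (1.06, adjusted p = 0.000873) and Il1rn (0.72, adjusted p = 0.00119) were higher in Rescue cells. Il18 (-1.69, adjusted p = 0.000312) and Cxcl1 (-1.34, adjusted p = 0.000171) were lower than in WT cells. Il33 differed from WT by -0.092 (95% interval -0.55 to 0.36) and Ccl20 by -0.84 (-1.82 to 0.13), and neither passed the test.

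Raising calcium drives keratinocytes to form junctions and to begin differentiation, and the response of each gene to HCM was tested within each genotype and time. In WT cells at 24 h, 5 members were higher in HCM (all genes 14.2%, 7.69% higher and 6.48% lower), led by Il18, 3.25 (SE 0.37, adjusted p = 1.8e-07), and Il33, 2.89 (SE 0.24, adjusted p = 6.78e-10). Tslp, Il1a and Il1rn had 1.46, 1.06 and 0.95 (adjusted p = 0.00995, 0.00201 and 0.000162), while Cxcl1 did not pass at -0.35. In WT cells at 72 h, 4 were higher and 1 lower (21.4%, 10.6% higher and 10.8% lower). Ccl20 rose with a ratio of 48.1 (16.0 to 238) (adjusted p = 1.28e-06). Il18, Cxcl1 and Il1a had 1.97 (SE 0.34, adjusted p = 8.48e-05), 1.94 (SE 0.26, adjusted p = 2.13e-06) and 1.40 (SE 0.24, adjusted p = 7.03e-05). Il33 was lower in HCM, -0.95 (SE 0.22, adjusted p = 0.00248). The Tslp call at 24 h was lost without WT 24 h LCM replicate 1 (1.19, adjusted p = 0.0737). It was also lost in a fit of these groups alone (0.0599), and the Il1a call at 24 h was lost without TMM factors (0.77, adjusted p = 0.108). Under that scaling Cxcl1 at 24 h was called lower in HCM (-0.64, adjusted p = 0.0333). Il1rn at 72 h, 0.43 and not called, was called higher by DESeq2 (adjusted p = 0.0365) and with a replicate block (0.0321).

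In PKP4-KO cells at 24 h, where 2.83% of all tested genes were called, 1.44% higher and 1.4% lower, Il33 rose in HCM by 2.73 (SE 0.25, adjusted p = 8.58e-08) and Il18 by 1.60 (SE 0.37, adjusted p = 0.0122), and Cxcl1 fell, -1.31 (SE 0.25, adjusted p = 0.00252). At 72 h, 5 members were higher and 1 lower (32.6%, 12.9% higher and 19.7% lower). Tslp had 2.96 (SE 0.34, adjusted p = 1.81e-07), Il18 2.42 (SE 0.35, adjusted p = 4.94e-06) and Il33 2.26 (SE 0.23, adjusted p = 2.45e-08). Ccl20 and Il1rn had 2.08 (SE 0.47, adjusted p = 0.00111) and 0.97 (SE 0.17, adjusted p = 5.1e-05). Cxcl1 was lower, -1.50 (SE 0.25, adjusted p = 4.35e-05). Il33 was thus higher in HCM in PKP4-KO cells at 72 h and lower in WT cells, while Cxcl1 showed the reverse, and both differences passed the interaction test given above. The Il18 call at 24 h was lost without PKP4-KO 24 h HCM replicate 3 or 24 h LCM replicate 2 or 3 (1.13 to 1.62, adjusted p = 0.0562 to 0.0765) and its value was 2.20 without 24 h LCM replicate 1. That of Ccl20 at 72 h was 2.69 without 72 h LCM replicate 2. In fits of these groups alone, the 24 h calls of Il18 and Cxcl1 were lost (adjusted p = 0.41 and 0.173), and without TMM factors that of Il1rn at 72 h was (0.30, adjusted p = 0.171). Ccl20 at 24 h, -1.67 and not called, was called lower by DESeq2 (adjusted p = 0.0266) and without TMM factors (0.0466).

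In Rescue cells at 24 h, 4 members were higher and 1 lower in HCM (12%, 6% higher and 5.96% lower). Il33 had 3.26 (SE 0.24, adjusted p = 5.31e-10) and Il18 2.78 (SE 0.36, adjusted p = 2.41e-06). Tslp and Il1rn had 1.32 (SE 0.32, adjusted p = 0.00551) and 0.59 (SE 0.16, adjusted p = 0.0163). Cxcl1 was the lower one, -1.50 (SE 0.25, adjusted p = 9.29e-05). At 72 h no member was higher and 4 were lower (24.9%, 13% higher and 12% lower). Cxcl1 had -2.84 (SE 0.27, adjusted p = 5.62e-09) and Il33 -2.22 (SE 0.23, adjusted p = 3.5e-08). Tslp and Il1rn had -2.20 (SE 0.33, adjusted p = 1.3e-05) and -0.81 (SE 0.16, adjusted p = 0.000496). Cxcl1 was lower in HCM in PKP4-KO and Rescue cells at both times. The Il1rn call at 24 h was lost without Rescue 24 h HCM replicate 1 or 24 h LCM replicate 3 (0.45 and 0.49, adjusted p = 0.133 and 0.104). It was also lost without TMM factors (adjusted p = 0.0564).

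**Figure D4:**
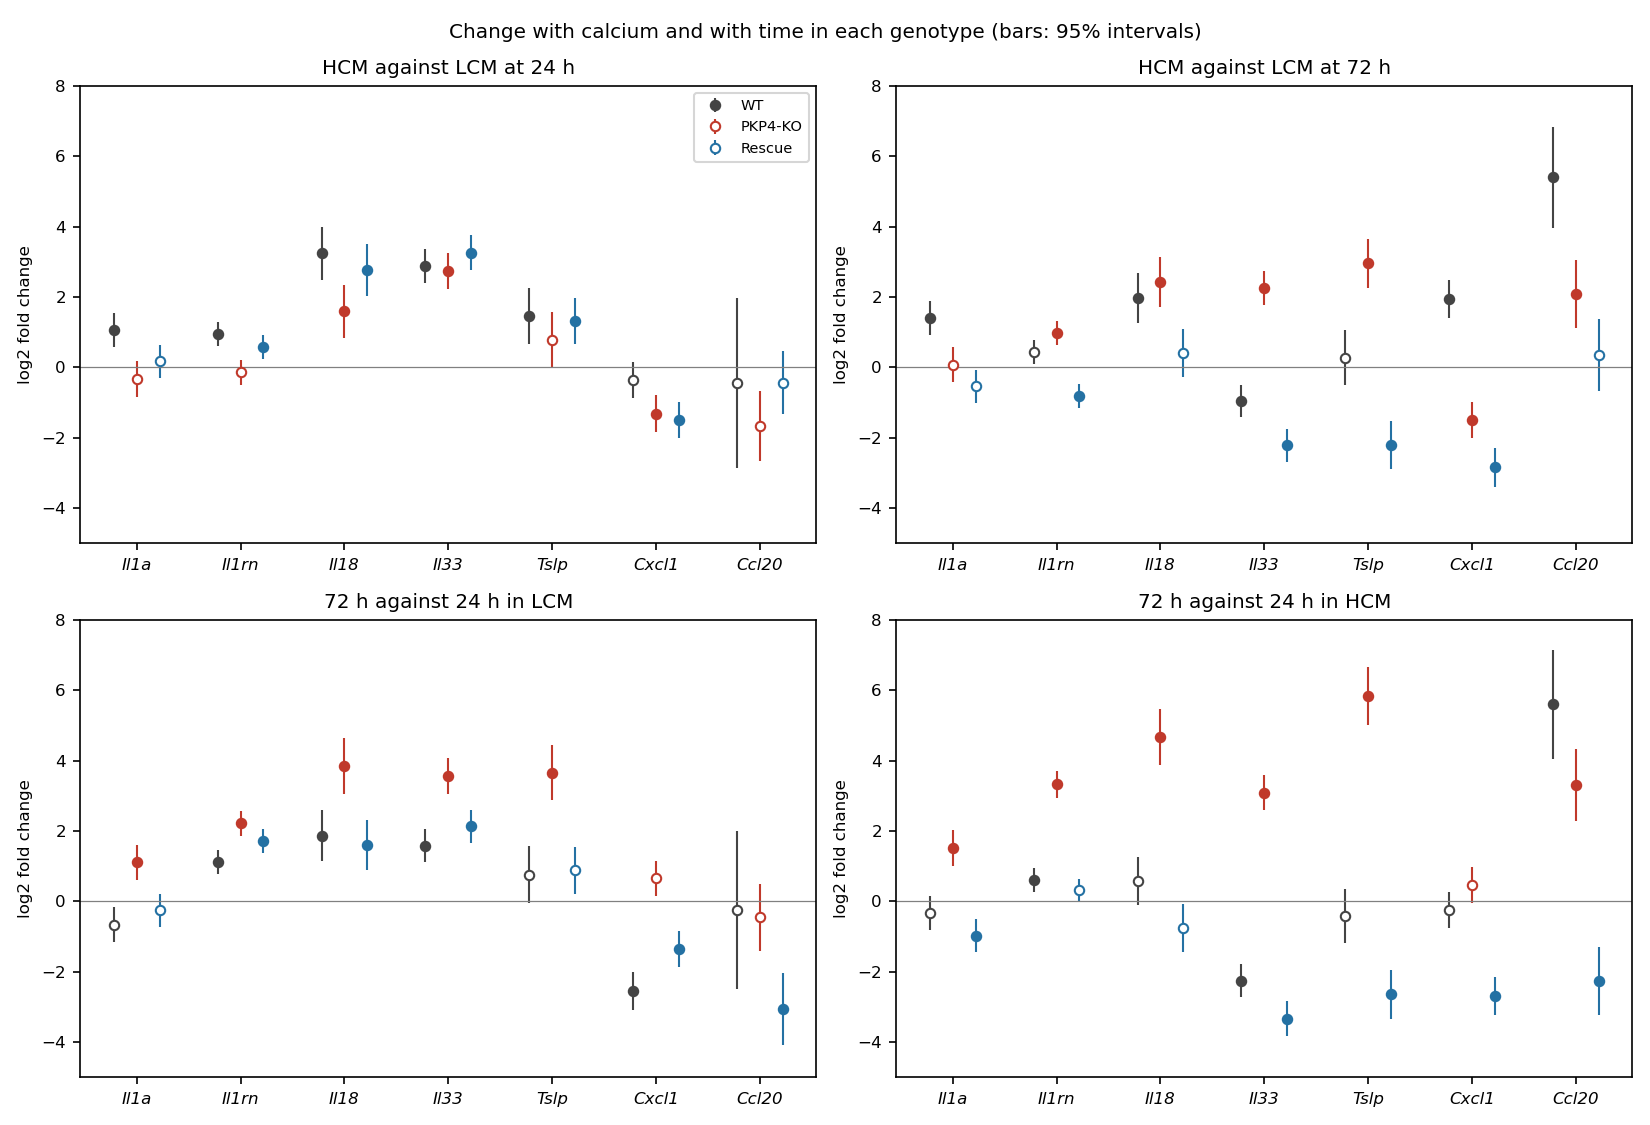
Log2 fold changes of the members for HCM against LCM and for 72 h against 24 h, from edgeR. The x axis lists Il1a, Il1rn, Il18, Il33, Tslp, Cxcl1 and Ccl20, while Il1b, Cxcl2 and Csf2 are not drawn. Colours give the genotype, and each panel is 1 comparison at 1 time or in 1 medium. The y axis is the log2 fold change, and error bars are 95% intervals. Filled markers have adjusted p below 0.05 while open markers do not. Tslp in PKP4-KO cells in HCM is at 5.84 for 72 h against 24 h and in Rescue cells at -2.64; Cxcl1 in PKP4-KO cells in HCM, 0.47 and not called, turns to -0.58 when libraries are scaled by their totals alone.

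The change with time in culture was tested within each genotype and medium. In WT LCM cells, 3 members were higher at 72 h than at 24 h and 1 lower (all genes 9.96%, 5.29% higher and 4.66% lower). The 3 were Il18, 1.87 (SE 0.35, adjusted p = 0.000618), Il33, 1.59 (SE 0.23, adjusted p = 2.62e-05), and Il1rn, 1.13 (SE 0.17, adjusted p = 4.13e-05). Cxcl1 was the lower one, -2.53 (SE 0.27, adjusted p = 2.77e-07). In WT HCM cells, 2 were higher and 1 lower (17.8%, 9.16% higher and 8.69% lower). Ccl20 had a ratio of 56.9 (15.3 to 477) (adjusted p = 4.45e-06) and Il1rn a log2 fold change of 0.61 (SE 0.17, adjusted p = 0.0101). Il33 was lower, -2.25 (SE 0.23, adjusted p = 4.63e-08). The Il1rn call in HCM was lost without WT 24 h HCM replicate 3 or 72 h HCM replicate 3 (0.46 and 0.52, adjusted p = 0.0861 and 0.0635). It was also lost in a fit of these groups alone (0.112) and without TMM factors (0.165).

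In PKP4-KO cells the members called were all higher at 72 h. In LCM there were 5 (26.1%, 12.4% higher and 13.7% lower). Il18 had 3.86 (SE 0.39, adjusted p = 9.55e-09) and Tslp 3.66 (SE 0.38, adjusted p = 2.24e-08). Il33 had 3.57 (SE 0.25, adjusted p = 1.29e-11) and Il1rn 2.22 (SE 0.18, adjusted p = 1.13e-10). The smallest of the 5 was that of Il1a, 1.11 (SE 0.25, adjusted p = 0.00101). In HCM there were 6 (55.8%, 24.3% higher and 31.4% lower). Tslp had 5.84 (SE 0.40, adjusted p = 1.59e-12) and Il18 4.69 (SE 0.39, adjusted p = 7.04e-11). Il1rn, Ccl20 and Il33 had 3.33 (SE 0.18, adjusted p = 1.84e-14), 3.30 (SE 0.50, adjusted p = 3.38e-06) and 3.09 (SE 0.24, adjusted p = 1.85e-11). Il1a again had the smallest value, 1.52 (SE 0.25, adjusted p = 1.37e-05). Scaling by library totals alone moved the median of all genes by -1.06 in HCM. The value of Il18 in LCM was 4.47 without PKP4-KO 24 h LCM replicate 1, and that of Ccl20 in HCM was 3.89 without 24 h HCM replicate 3. The Il1a calls were lost under that scaling in LCM (0.72, adjusted p = 0.0966) and HCM (0.44, adjusted p = 0.249).

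In Rescue LCM cells, 3 members were higher at 72 h and 2 lower (9.81%, 6.84% higher and 2.96% lower). The higher genes were Il33, 2.14 (SE 0.23, adjusted p = 7.36e-08), Il1rn, 1.72 (SE 0.17, adjusted p = 1.46e-08), and Il18, 1.60 (SE 0.35, adjusted p = 0.00181). The lower ones were the chemokines Ccl20, -3.06 (SE 0.49, adjusted p = 4.86e-05), and Cxcl1, -1.35 (SE 0.25, adjusted p = 0.000291). In Rescue HCM cells no member was higher and 5 were lower (24.3%, 13.6% higher and 10.7% lower). Il33 had -3.33 (SE 0.24, adjusted p = 8.42e-11) and Cxcl1 -2.69 (SE 0.26, adjusted p = 1.13e-08). Tslp, Ccl20 and Il1a had -2.64 (SE 0.34, adjusted p = 9.87e-07), -2.27 (SE 0.47, adjusted p = 0.000631) and -0.97 (SE 0.23, adjusted p = 0.00229). The value of Ccl20 in LCM was -3.64 without Rescue 72 h LCM replicate 2.

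The relative make-up of the set, as each gene's share of the summed per-length level of the 10 genes, differed between groups. At 24 h LCM, Cxcl1 held 47.9 ± 8.73% of it in WT cells, 79.5 ± 4.32% without PKP4 and 54.5 ± 7.75% in Rescue cells (SD, n = 3). At 72 h HCM, Il18 held 69.95 ± 6.21%, 50.9 ± 3.72% and 37.2 ± 2.81%. There Tslp held 1.33 ± 0.333%, 24.6 ± 3.78% and 10.5 ± 1.80%, and Il1a 6.29 ± 2.46%, 1.30 ± 0.153% and 21.0 ± 3.14%.

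The genes around the cytokines in their pathway were counted in lists of receptors, processing factors, signal transducers and regulators, of which the counts in PKP4-KO against WT are given as higher and lower in the order 24 h LCM, 24 h HCM, 72 h LCM and 72 h HCM. Of all tested genes, 19.7%, 20.7%, 21.3% and 21.9% were higher and 20.6%, 22.2%, 23.8% and 29.9% lower in this order. In Rescue against WT the shares were 13.5%, 11.8%, 17.9% and 19.5% higher and 11.4%, 11.4%, 14.6% and 16.7% lower. The shift of the median of all genes without TMM factors, -0.76 at 72 h HCM, applies to these genes too, and the counts under that scaling close each list. The shares above were taken with TMM factors and do not serve as background for those counts. Of the 9 receptors, decoys and co-receptors of the IL-1 family, 7 were tested, and 1 was higher in each condition while 0, 2, 1 and 3 were lower (medians -0.41, 0.39, -0.14 and -0.99). The gene that was higher throughout was Il1rl2, the IL-36 receptor, at 2.67, 1.86, 2.95 and 3.04 (adjusted p = 2.13e-10, 4.87e-08, 1.86e-11 and 1.43e-11). The signalling receptor Il1r1, -1.06 (SE 0.27, adjusted p = 0.00169), the shared co-receptor Il1rap, -2.56 (SE 0.45, adjusted p = 2.64e-05), and the decoy Il1r2 (54 counts in WT and 3 in PKP4-KO, a ratio of 9.70 with a 95% counting interval of 3.15 to 48.5, adjusted p = 0.0316) were lower at 72 h HCM. At 24 h HCM, Il1rap had -0.97 (SE 0.37, adjusted p = 0.0369) and Il18rap, a chain of the IL-18 receptor, -2.27 (SE 0.85, adjusted p = 0.0321). The counts without TMM factors were 1, 1, 1 and 1 higher and 0, 0, 2 and 4 lower, and the calls of Il1rap (adjusted p = 0.116) and Il18rap (0.050) at 24 h HCM were lost.

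Of the 8 receptors for the chemokines, TSLP and GM-CSF, 3 were tested, with 1, 0, 1 and 1 higher and 2, 2, 0 and 2 lower (medians -0.93, -0.90, -0.34 and -0.96). Cxcr2, the receptor of CXCL1, had 33 counts in WT and 1 in PKP4-KO cells at 24 h HCM, a ratio of 36.7 with a counting interval of 6.14 to 1493 (adjusted p = 0.000408), and -2.16 (SE 0.72, adjusted p = 0.0136) at 72 h HCM. Crlf2, the receptor chain of TSLP, was lower at 24 h HCM, -0.90 (SE 0.25, adjusted p = 0.00415), and 72 h HCM, -0.96 (SE 0.25, adjusted p = 0.00237). Csf2ra, a chain of the GM-CSF receptor, was higher at 72 h HCM, 0.90 (SE 0.24, adjusted p = 0.0026). Without TMM factors there were none higher and 2, 2, 0 and 2 lower, and Csf2ra lost its calls at 24 h LCM, 72 h LCM and 72 h HCM (0.50, 0.39 and 0.12, adjusted p = 0.147, 0.22 and 0.711). Its counts at 72 h HCM were 127 in PKP4-KO and 128 in WT libraries.

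Of 17 genes for processing and release of IL-1 family proteins, 9 were tested, with 2, 2, 4 and 3 higher and 4, 5, 4 and 3 lower (medians -0.72, -0.75, 0.70 and -0.055). Casp1, the protease that cleaves the IL-1β and IL-18 precursors, had the largest change, from 0.704 ± 0.214 CPM in WT to 38.0 ± 9.60 in PKP4-KO cells at 24 h HCM and from 0.981 ± 0.328 to 95.3 ± 13.5 at 72 h HCM. Its log2 fold changes were 5.94 (SE 0.36, adjusted p = 1.5e-13), 5.77 (SE 0.35, adjusted p = 9.9e-14), 6.07 (SE 0.34, adjusted p = 2.13e-14) and 6.57 (SE 0.35, adjusted p = 1.55e-14). In Rescue cells its level at 24 h HCM was 1.71 ± 0.171 CPM, and at 72 h HCM it was 0.751 ± 0.190 CPM. Nlrp10, of the NOD-like receptor family, was also higher in all 4 conditions (4.46, 2.42, 4.80 and 3.74; adjusted p = 1.31e-07, 0.000168, 3.14e-09 and 3.27e-08). Pycard, the adaptor of inflammasomes, was lower at 24 h HCM, -3.94 (SE 0.62, adjusted p = 6.13e-06), and higher at 72 h HCM, 3.88 (SE 0.52, adjusted p = 4.67e-07). Gsdma, an epidermal gasdermin, was lower at 24 h HCM, -3.46 (SE 0.24, adjusted p = 1.59e-12), and Nek7, an activator of NLRP3, was lower at 72 h HCM, -1.69 (SE 0.33, adjusted p = 0.000114). Scaling by totals alone gave 2, 2, 2 and 3 higher and 4, 5, 4 and 5 lower, with a median of 0.31 at 72 h LCM and -0.80 at 72 h HCM.

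Of the 21 signal transducers of the IL-1 and Toll-like receptors, 17 were tested, with 2, 1, 1 and 2 higher and 9, 9, 7 and 9 lower (medians -0.53, -0.49, -0.37 and -0.53). Tlr4, the receptor for endotoxin, had -2.08 (SE 0.49, adjusted p = 0.000878) at 24 h HCM and -2.16 (SE 0.52, adjusted p = 0.00112) at 72 h HCM, and the kinases Irak2 and Irak1 had -1.82 (SE 0.20, adjusted p = 1.94e-08) and -1.38 (SE 0.16, adjusted p = 5.52e-08) at 24 h HCM. Later, at 72 h HCM, Tab3, a partner of the kinase TAK1, had -2.44 (SE 0.44, adjusted p = 4.13e-05), the adaptor Tirap -1.79 (SE 0.18, adjusted p = 4.97e-09) and the IκB kinase subunit Chuk -1.71 (SE 0.45, adjusted p = 0.00235). In Rescue against WT cells, 1, 0, 3 and 5 of the 17 were higher and 2, 3, 3 and 0 lower. Without TMM factors the counts were 1, 1, 0 and 0 higher and 9, 7, 11 and 11 lower in PKP4-KO cells and 1, 1, 0 and 7 higher and 3, 1, 1 and 0 lower in Rescue against WT cells.

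Of 15 NF-κB subunits and feedback genes, 14 were tested, with 7, 6, 5 and 3 higher and 2, 1, 2 and 3 lower in PKP4-KO cells (medians 0.43, 0.10, 0.48 and -0.085). The inhibitor genes Nfkbie, 2.49 (SE 0.55, adjusted p = 0.000482), and Nfkbia, 1.21 (SE 0.14, adjusted p = 3.43e-08), were higher at 24 h HCM. So were the nuclear IκB gene Bcl3, 1.24 (SE 0.20, adjusted p = 1.1e-05), and the subunit Relb, 1.1 (SE 0.19, adjusted p = 1.7e-05). In HCM at 72 h, Bcl3 was higher, 2.53 (SE 0.21, adjusted p = 8.27e-11), and Rel, -1.40 (SE 0.35, adjusted p = 0.00131), Relb, -0.58 (SE 0.19, adjusted p = 0.0123), and the A20-binding protein gene Tnip1, -1.15 (SE 0.19, adjusted p = 1.06e-05), were lower. In Rescue against WT cells, 7, 5, 7 and 6 were higher and none lower, with medians of 0.56, 0.49, 0.34 and 0.51. With library totals alone the counts were 6, 6, 3 and 1 higher and 2, 0, 3 and 10 lower in PKP4-KO cells (median -0.85 at 72 h HCM) and 4, 4, 6 and 7 higher and none lower in Rescue against WT cells.

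Of 34 other cytokines and chemokines of the epidermis, 22 were tested, with 5, 5, 12 and 6 higher and 4, 9, 1 and 5 lower (medians -0.013, -0.51, 1.21 and 0.12). Ccl2, which attracts monocytes, had 165 counts in PKP4-KO and 4 in WT cells at 24 h HCM, a ratio of 37.1 with a counting interval of 14.2 to 138 (adjusted p = 1.28e-07). The EGF receptor ligand Tgfa, -2.88 (SE 0.21, adjusted p = 5.4e-12), and Il36b, -2.85 (SE 0.22, adjusted p = 1.75e-11), were lower there, and Il19, of the IL-10 family, was higher at 24 h HCM, 2.82 (SE 0.74, adjusted p = 0.00267), and 72 h HCM, 3.22 (SE 0.63, adjusted p = 0.000119). In HCM at 72 h, Il36a was higher, 2.08 (SE 0.39, adjusted p = 6.16e-05), and the neutrophil chemokines Cxcl5, -1.69 (SE 0.27, adjusted p = 7.92e-06), and Cxcl3, -1.32 (SE 0.33, adjusted p = 0.00157), were lower. In Rescue against WT cells, 12, 11, 15 and 2 of the 22 were higher and 3, 3, 1 and 4 lower, with medians of 1.15, 0.84, 1.64 and -0.23. Without TMM factors PKP4-KO cells had 3, 6, 11 and 2 higher and 6, 8, 2 and 8 lower, and Rescue against WT cells 12, 11, 14 and 4 higher and 3, 2, 1 and 4 lower. The medians at 72 h HCM turned to -0.64 and 0.18 under that scaling.

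All 8 genes of factors that speed the decay of cytokine mRNAs were tested, with 3, 4, 2 and 0 higher and 3, 3, 1 and 4 lower (medians -0.14, 0.13, -0.11 and -0.40). Zfp36l1 was higher at 24 h HCM, 2.03 (SE 0.26, adjusted p = 1.74e-07). Zfp36l2, -1.70 (SE 0.25, adjusted p = 1.95e-06), Zfp36, the gene of tristetraprolin, -1.11 (SE 0.13, adjusted p = 6.82e-08), and Rc3h2, a Roquin gene, -1.0 (SE 0.31, adjusted p = 0.01), were lower. In HCM at 72 h, Rc3h2 had -2.18 (SE 0.35, adjusted p = 8.23e-06), Zfp36l2 -1.84 (SE 0.25, adjusted p = 6.96e-07), Rc3h1 -1.06 (SE 0.36, adjusted p = 0.0161) and Hnrnpd, the gene of AUF1, -0.57 (SE 0.11, adjusted p = 0.000151). In Rescue against PKP4-KO cells at 72 h HCM, where 37.2% of all tested genes were higher with TMM factors, all 8 were. Without these factors all 8 were higher too, but the median log2 fold change of all tested genes was then 1.37. Scaled by totals alone, PKP4-KO cells had 2, 4, 1 and 0 higher and 3, 2, 3 and 7 lower, with a median of -0.50 at 72 h LCM, and the call of Rc3h2 at 24 h HCM was lost (adjusted p = 0.0623).

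The glucocorticoid response genes were counted because all cultures held hydrocortisone. Of 8 tested, 0, 1, 1 and 1 were higher and 5 were lower in each condition (medians -1.0, -0.99, -1.49 and -1.96). Nr3c1, the gene of the glucocorticoid receptor, had -1.66 (SE 0.34, adjusted p = 0.000212) at 24 h HCM and -2.84 (SE 0.38, adjusted p = 5.94e-07) at 72 h HCM. Its targets Tsc22d3, -1.38 (SE 0.13, adjusted p = 6.14e-10), Fkbp5, -1.28 (SE 0.17, adjusted p = 6.35e-07), and Zbtb16, -1.09 (SE 0.34, adjusted p = 0.00983), were lower at 24 h HCM. At the later time in HCM, Klf9 had -2.93 (SE 0.42, adjusted p = 1.73e-06), Zbtb16 -2.61 (SE 0.39, adjusted p = 3.22e-06) and Fkbp5 -2.01 (SE 0.18, adjusted p = 4.04e-10). In Rescue against WT cells, 1, 1, 1 and 3 of the 8 were higher and 4, 5, 4 and 2 lower, with medians of -0.85, -0.93, -0.77 and 0.29. Whether these genes have a part in the cytokine values was not tested. The counts under scaling by totals alone were 0, 1, 1 and 1 higher and 5, 4, 6 and 7 lower in PKP4-KO cells and 0, 1, 0 and 4 higher and 4, 4, 4 and 2 lower in Rescue against WT cells.

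The genes whose pattern over the 36 libraries was most like that of each member were found by Pearson's r of log2(CPM + 0.5). The libraries share groups, depth and scaling, so r is a description. Il1a was most like Rbms1 (0.92), Dusp5 (0.91) and Smurf1 (0.90), Il1rn most like Fchsd1 (0.98), Pla2g4f (0.96) and Sult2b1 (0.96), and Il18 most like Krt16 (0.95), Pdlim2 (0.95) and Krt6b (0.94). Il33 was most like Zfp750 (0.93), Pim3 (0.90) and Foxn1 (0.88). Tslp was most like Rgs20 (0.93), Gdpd1 (0.92) and Susd2 (0.91), Cxcl1 most like Csf3 (0.89), the gene of G-CSF, Areg (0.83) and Dusp6 (0.81), and Ccl20 most like Ifitm3 (0.88), Chid1 (0.85) and Fuca1 (0.82). The low genes had weaker likeness: at most 0.57 for Il1b (Anpep), 0.65 for Cxcl2 (Ctss, followed by Lyz2 at 0.55 and Lcp1 at 0.53) and 0.75 for Csf2 (Lrrc32). Between members, r was highest for Il1rn and Tslp (0.74) and for Il18 and Il33 (0.74) and lowest for Il18 and Cxcl1 (-0.21), and Il1rn and Cxcl1 had -0.018.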

How the data were processed

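Poly(A) RNA of keratinocytes was sequenced as 36 strand-specific libraries. The authors aligned the reads with HISAT2 2.1.0 to mm39 with a GFP-PKP4 sequence added, dropped secondary alignments (SAMtools 1.10) and assigned reads to Ensembl genes with featureCounts 2.0.0, and they deposited raw counts per gene in 1 table together with gene lengths. The strand setting of counting is not given in the sources used here. No step before the counts was repeated.

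From these counts, 28 comparisons were tested with edgeR's quasi-likelihood test (edgeR 4.0.16, R 4.3.3). Low genes were removed with filterByExpr, libraries were scaled with TMM factors, and 1 model with a mean for every group left 24 degrees of freedom for the spread. Benjamini-Hochberg adjustment ran over the 15114 tested genes, and an adjusted p below 0.05 counted as a call. CPM are scaled with TMM factors, RPKM divide them by gene length, and ± gives the SD of 3 libraries. Ratios over groups with 3 counts or fewer carry 95% exact counting intervals, which cover counting error only, as does the floor of 3 counts (0.173 CPM at the median total of 17353519.5). No 2 replicates of a group were copies of each other (chi-square per gene 7.03 to 266 over 36 pairs). The scripts were tested on simulated counts. All 3 same-numbered pairs had deviations that correlated above 0.1 in HCM against LCM in WT cells at 24 h (0.35 to 0.48) and Rescue against PKP4-KO at 72 h LCM (0.30 to 0.72). The reported tests used no pairing, in these comparisons either. The replicate block was 1 effect of the number over all libraries, so it does not test pairing within them. With that block, 1 member call of these comparisons was lost, that of Csf2 in the latter.

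The members, the 8 pathway lists of 120 genes and the 6 marker lists were chosen with earlier results of these data known. Named were all 10 members, in each list up to 4 genes with the largest changes among those called after loss of PKP4 at 24 h HCM and up to 4 at 72 h HCM, the 3 protein-coding genes most like each member, and the genes within 5 Mb as a median. Lyz2 was added after its values were seen. The alternatives were DESeq2 1.42.0, library sizes without TMM factors, no low-count filter, a fit of only the groups compared, the replicate number as a block, and each library left out in turn. Promoters came from RefSeq. Motifs were searched in the 250 bases before each start, and the printed runs end where the Ensembl gene begins, so that those of Cxcl1 and Cxcl2 are shorter than 250 bp. Python 3.11.15, scipy 1.17.1 and pandas 2.3.3 were used for summaries.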

Additional observations from a re-analysis of the deposited data

Results flagged for a closer look

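The effect of PKP4 loss differed between culture conditions for 7 of the 10 genes by the interaction test of edgeR's quasi-likelihood model (adjusted p below 0.05 over all tested genes), in 18 of 40 tests. Over all tested genes, 26.6% were called between times in HCM, 5.25% between times in LCM, 5.74% between media at 72 h and 4.02% at 24 h. Ccl20 enters through 1 call, which was lost without PKP4-KO 72 h LCM replicate 2 (-2.71, adjusted p = 0.0584) or WT 72 h LCM replicate 2 or 3 (-3.24 and -3.33, adjusted p = 0.0641 and 0.0583). Each value is the log2 fold change of PKP4-KO against WT in the first condition minus that in the second.

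The change between 24 h and 72 h was upward in all 11 cases, both for the alarmins and for the IL-1 pair. For 72 h against 24 h in HCM it was 6.26 for Tslp, 5.34 for Il33, 4.09 for Il18, 2.71 for Il1rn and 1.84 for Il1a. In LCM it was 3.19 for Cxcl1 (adjusted p = 9.63e-07), 2.90 for Tslp (0.000976), 1.99 for Il18 (0.0142), 1.98 for Il33 (0.000209), 1.77 for Il1a (0.00131) and 1.09 for Il1rn (0.00463). The PKP4-KO 72 h HCM libraries, which enter the HCM values, had the lowest TMM factors, 0.481 to 0.546. Without TMM factors the Il1a difference between times in HCM was 0.98 and lost its call (adjusted p = 0.0839), while the other 4 in HCM were called again, and differences in the downward direction were called for Ccl20 (-3.10, adjusted p = 0.00449) and Cxcl2 (-4.08, adjusted p = 0.0417). Both of these fitted sizes depend on the prior count, as Ccl20 was at the floor in WT 24 h HCM and Cxcl2 in PKP4-KO 72 h HCM. The Il18 difference in LCM lost its call in a fit of only the groups compared (adjusted p = 0.0783).

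Between HCM and LCM the differences had both signs. At 72 h they were 3.21 for Il33 and 2.68 for Tslp, and -3.44 for Cxcl1, -3.32 for Ccl20 (at the floor in WT 72 h LCM) and -1.32 for Il1a. At 24 h they were -1.39 for Il1a and -1.08 for Il1rn. Both 24 h calls were lost in fits of only the groups compared (adjusted p = 0.0633 and 0.083) and without TMM factors (0.277 and 0.139), and that of Il1a also without any of 3 PKP4-KO libraries (0.0547 to 0.0612). The Il1a call at 72 h was lost in a fit of only the groups compared (0.0636) and without either of 2 libraries (0.0531 and 0.0536). The response of Cxcl1 to HCM had opposite signs at 72 h: it was higher in HCM in WT cells, going from 7.30 ± 1.59 to 28.1 ± 6.53 CPM, and lower in HCM in PKP4-KO cells, going from 135 ± 26.0 to 47.8 ± 7.41 CPM.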

How the results depend on the processing

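Of 152 calls of a member in a comparison, 149 were also made by DESeq2, 136 without TMM factors and 149 without the low-count filter, and 133 of 145 in fits of only the groups compared. Of the tests not called, 5 gained a call with DESeq2, 8 without TMM factors in the same direction, and 1 without the low-count filter. In fits of only the groups compared, 4 did so. With each library left out in turn, 964 calls were made again, 56 were lost and 14 were gained. Over the 4 conditions of PKP4-KO against WT, 24 calls were made, and 21 to 25 with 1 library left out. The same counts were 28 and 25 to 29 for Rescue against PKP4-KO, 26 and 24 to 27 for Rescue against WT, 28 and 27 to 30 for HCM against LCM, 28 and 27 to 30 for 72 h against 24 h, and 18 and 17 to 19 for differences of the PKP4-KO effect. Without TMM factors the sign turned for 1 called value, that of Il1rn after loss of PKP4 at 72 h HCM (-0.034). It also turned for values that were not called, such as Cxcl1 in PKP4-KO HCM cells at 72 h against 24 h, which was called lower under that setting (-0.58, adjusted p = 0.0136). By construction that setting leaves the median of all genes away from 0.

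The replicate numbers are shared by the groups. Over 72 pairs in 24 comparisons, deviations correlated between -0.65 and 0.72, 21 pairs exceeded 0.1, and 22 correlated best with their own number. Every pair exceeded 0.1 in 2 comparisons, and in the others the samples share only a number. With the replicate number as a block, 150 of 152 calls were made again and 2 were gained, and the counts were 24, 27, 25, 29, 29 and 18 in the order above. Il1b, Cxcl2 and Csf2 are limited by depth, and differences below a few counts were not detectable for them.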
